A study of Mus musculus with 8 samples.

Results

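The genes described here are receptor-proximal signalling kinases and adaptors of B cells, measured in mouse pro-B cells with and without the histone methyltransferase Setdb1. The list names 9 genes: the kinases Blk, Lyn, Fyn, Syk and Btk, the adaptors Blnk, Bank1 and Pik3ap1, and the phospholipase Plcg2. A gene was taken from the array where a probeset (a group of probes over one stretch of a gene) is annotated with that symbol and no other. By this rule 8 of the 9 listed genes were found, with 161 of the 212097 probesets that name 1 gene, and they are 8 of the 20416 genes so measured. Lyn is not analysed here. The list was selected on earlier results of these same arrays, the differences between deleted and control cells, in which Bank1 stood among the most lowered genes. The members' counts are therefore descriptions, and Bank1's deletion values are given with no test.

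When the B-cell receptor is engaged, Src family kinases phosphorylate the signalling motifs of its Igα and Igβ chains, and Syk docks on these motifs. Syk phosphorylates the adaptor Blnk, which brings Btk and Plcg2 together, and Plcg2 then cleaves a membrane lipid into the messengers that release calcium and activate protein kinase C. Pro-B cells do not yet carry a complete receptor: their surrogate light chain pairs with the heavy chain at the next step, as the pre-B cell receptor, which signals through many of the same proteins.

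RNA of purified pro-B cells was hybridised to 8 Affymetrix arrays in 4 groups of 2. The marrow groups are cells with floxed Setdb1 (Setdb1 C/C, titled Wt, the marrow controls) and with deleted Setdb1 (Δ/Δ), both without a Bcl2 transgene. The culture groups are cells with floxed and with deleted Setdb1 that all carry a Bcl2 transgene and were grown for 4 days in medium with IL-7 at 5 ng/µl, a cytokine that pro-B cells need, so culture and transgene cannot be told apart. One field of the labels describes the culture for all samples, whereas the design text has the marrow cells taken directly. No label gives the driver of the deletion, the age of the mice or whether replicates came from separate animals, so the p-values rest on array-to-array spread that may be technical, and the number of arrays limits the precision.

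All values are deposited log2 signals, and a gene's value combines its probesets. Array medians of the gene values lay between 5.25 and 5.33, and replicates correlated at 0.965 to 0.992 across genes. The B-lineage factors Pax5 (9.65 to 10.58) and Ebf1 (10.02 to 10.70) and the surrogate light chain genes Igll1 (10.42 to 12.16) and Vpreb1 (10.32 to 11.22) were high on every array. The targeted gene did not separate the groups: Setdb1 read 7.02 and 6.67 in marrow controls, 6.74 and 6.53 in deleted marrow cells, 6.84 and 6.45 in cultured controls and 6.66 and 6.99 in deleted cultured cells. Of its 23 probesets, 1 read lower in both deleted groups without overlap. Which probesets lie in the deleted segment is not given in the sources used here, so Setdb1 does not check the labels. Markers of other cells moved between replicates: the mean over 17 neutrophil and monocyte genes was 5.22 and 7.62 in cultured controls 1 and 2, 6.24 and 8.22 in deleted cultured cells 1 and 2, and 8.83 to 9.53 in marrow. Between the marrow controls 9 of the 17 read higher in array 1 and 8 in array 2: Emr1, a macrophage gene, read 10.03 and 6.65, and Mpo, a granule gene of early myeloid cells, 9.60 and 11.19. Deleted against control, 13 of the 17 lay lower in marrow (median difference -0.78) and 16 higher in culture (median 0.83). The medians over all genes tested were 0.04 and 0.01. The part of these markers in the results below was not tested.

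Promoters are shown as examples for Bank1 and Syk, which read lower in deleted cells in marrow and in culture, and for Plcg2, whose groups overlapped in both. Each window holds 250 bases before and 50 after a start site (300 in all), from RefSeq on GRCm38.p6, written 5′ to 3′ on the gene's strand. Bank1 lies at chr3:136326017-136326316 on the minus strand, the windows of the 2 Syk starts at chr13:52583187-52583486 and chr13:52596632-52596931 on the plus strand, and Plcg2 at chr8:117498025-117498324 on the plus strand. Capitals mark the EBF1 motif CCCNNGGG, the E-box CAGGTG or its reverse complement, and the PU.1 motif GAGGAA.
Bank1: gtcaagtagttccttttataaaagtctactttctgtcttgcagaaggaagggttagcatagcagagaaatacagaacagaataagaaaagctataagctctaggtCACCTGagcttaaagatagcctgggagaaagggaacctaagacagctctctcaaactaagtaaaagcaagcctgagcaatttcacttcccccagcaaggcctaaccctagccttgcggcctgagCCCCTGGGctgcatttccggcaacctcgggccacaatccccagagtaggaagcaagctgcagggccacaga
Syk, start 1: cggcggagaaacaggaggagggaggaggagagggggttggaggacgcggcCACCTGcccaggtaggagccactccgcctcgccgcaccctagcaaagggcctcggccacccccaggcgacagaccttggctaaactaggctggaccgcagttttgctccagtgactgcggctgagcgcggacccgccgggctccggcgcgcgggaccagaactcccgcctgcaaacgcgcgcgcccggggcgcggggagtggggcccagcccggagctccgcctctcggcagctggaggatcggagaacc
Syk, start 2: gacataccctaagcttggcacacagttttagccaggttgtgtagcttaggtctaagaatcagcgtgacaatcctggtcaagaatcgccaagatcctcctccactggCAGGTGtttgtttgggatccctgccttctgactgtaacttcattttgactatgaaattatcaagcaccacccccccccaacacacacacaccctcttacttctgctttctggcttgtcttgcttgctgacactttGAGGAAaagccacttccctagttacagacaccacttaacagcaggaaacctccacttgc
Plcg2: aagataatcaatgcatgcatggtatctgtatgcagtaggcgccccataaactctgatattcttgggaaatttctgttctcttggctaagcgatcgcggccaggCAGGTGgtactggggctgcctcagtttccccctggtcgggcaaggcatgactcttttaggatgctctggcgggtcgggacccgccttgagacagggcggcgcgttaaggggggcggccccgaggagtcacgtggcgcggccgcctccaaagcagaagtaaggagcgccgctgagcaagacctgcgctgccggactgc
Windows were found for 7 of the 8 genes, 8 in all. The EBF1 motif stood in 2 of the 8 (Bank1 and Fyn), against 13.7% of the 32851 promoters of the table. The E-box stood in 6 of the 8 (Bank1, both Syk starts, Blnk, Plcg2 and Pik3ap1), against 20.2%. The PU.1 motif stood in 3 (the second Syk start, Btk and Pik3ap1), against 28.3%, and the RUNX motif TGTGGT in 0, against 16.8%. Both strands were searched, CCCNNGGG reads the same on both, and no match overlapped another. The genes with and without lower values in deleted cells both hold E-box matches, and a match is a description of the letters only.

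**Figure D1:**
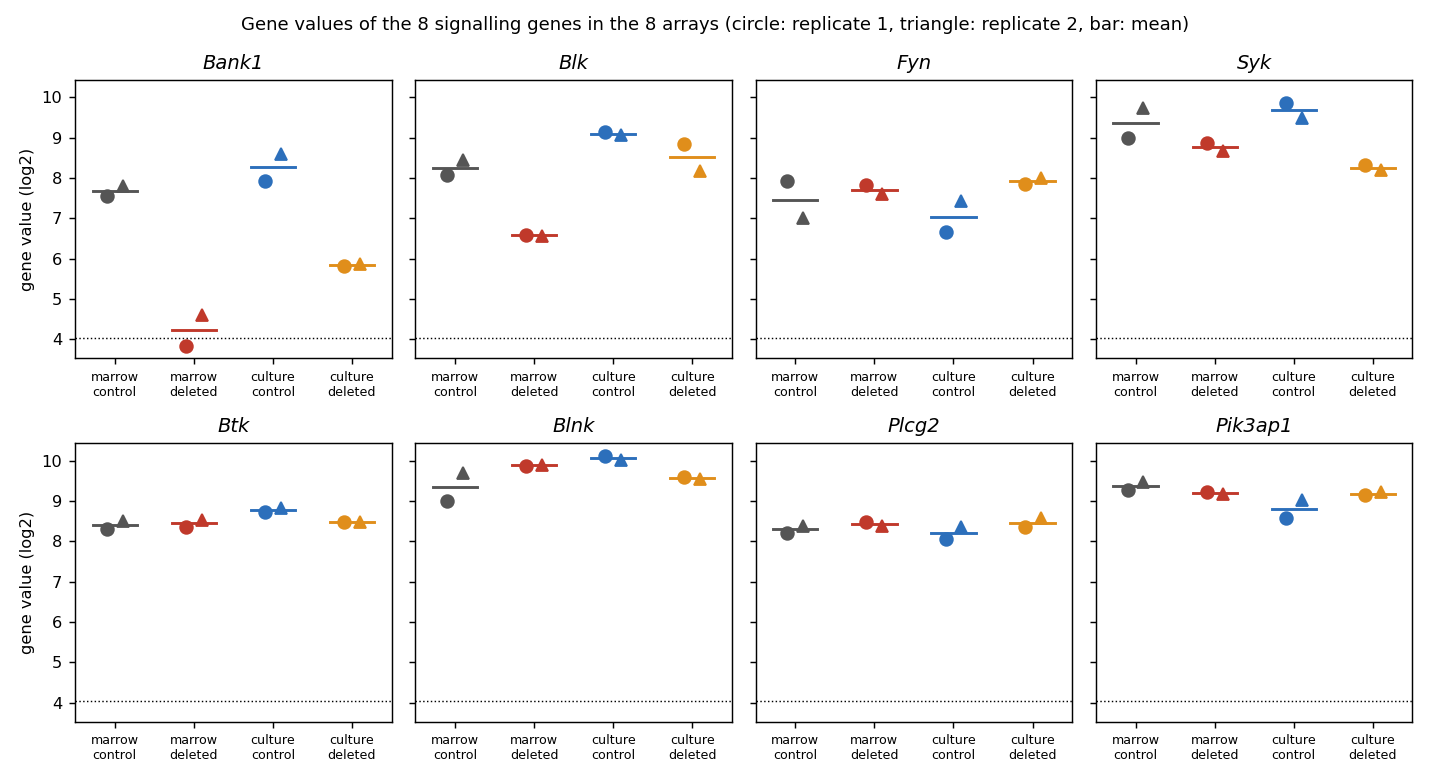
Log2 gene value (vertical axis) of the 8 genes on each of the 8 arrays, by group, with a circle for replicate 1, a triangle for replicate 2, a bar at each group's mean and a dotted line at the dim value of 4.03. Bank1 stands lowest in deleted marrow cells (3.84 and 4.60), whereas Plcg2 stays within 8.05 and 8.57 on every array.

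With Setdb1 deleted, Bank1 stood lowest against its controls, Blk and Syk were lower in the mean of the marrow and culture effects, and the other 5 genes did not pass in any deletion comparison. Counts of calls are given over the 7 genes other than Bank1, from limma's linear model over all 8 arrays with Benjamini-Hochberg adjustment over 16050 genes. In marrow 0 of the 7 passed an adjusted p of 0.05, where 0.131% of all genes passed, and 2 of the 7 (Blk lower, Blnk higher) had an unadjusted p under 0.05, where 11.8% of all genes did. In culture 1 of the 7 passed (Syk, lower), where 0.71% of all genes were called lower. In the mean of the 2 deletion effects 2 of the 7 passed (Blk and Syk, both lower), where 1.38% were called lower. Counted by groups that do not overlap, 3 of the 7 were lower and 1 was higher in marrow, where 17.6% and 27.3% of all genes were, and 4 were lower and 2 higher in culture, where 21.8% and 22.4% were. The median difference over the 7 genes was 0.03 in marrow and -0.29 in culture, beside 0.04 and 0.01 over all genes tested. The list was chosen with the deletion effects known, so nothing is read from these shares. The counts turn on single arrays: in marrow 2 passed without marrow control 2 (Blk and Blnk), and in culture 0 passed without either deleted marrow array or any of the 4 culture arrays. In the mean 0 passed without either deleted marrow array or either cultured control, and 1 (Blk) without either deleted culture array.

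**Figure D2:**
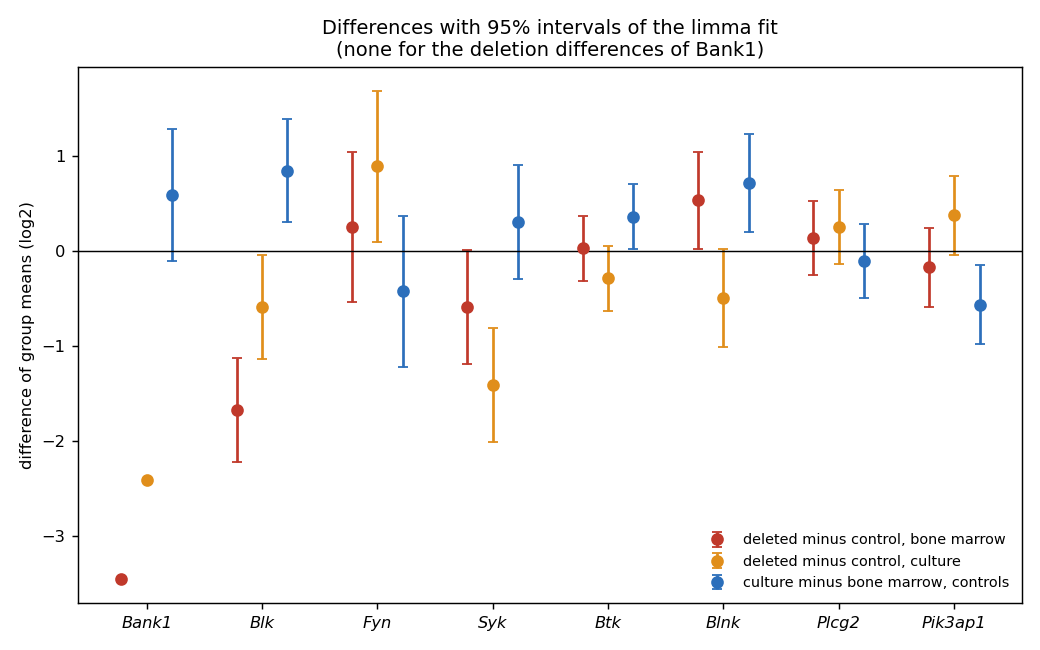
Log2 difference, deleted minus control, for each gene in marrow and in culture, and culture minus marrow in the controls, with the 95% interval from limma (none for the deletion differences of Bank1). Bank1 lies farthest below 0 in both, whereas Blnk lies above 0 in marrow (0.53) and below 0 in culture (-0.50).

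Among the Src family kinases, which start the signal at the receptor, Blk is largely a B-lineage gene. Blk read 8.08 and 8.44 in marrow controls, 6.59 and 6.57 in deleted marrow cells, 9.13 and 9.07 in cultured controls and 8.85 and 8.18 in deleted cultured cells. Deleted cells lay below their controls without overlap in marrow and in culture, but deleted cultured cell array 1 exceeded both marrow controls. Lower values without overlap in both comparisons were found for 6.26% of all genes. Blk differed by -1.67 in marrow (SE 0.23, limma adjusted p 0.0673) and by -0.59 in culture (SE 0.23, adjusted p 0.296), and the mean of the 2 differences, -1.13 (SE 0.17, adjusted p 0.0181), was past the threshold. Of its 16 probesets, 14 read lower without overlap in marrow and 9 in culture. Probesets of a gene share the same arrays and are not replicates, here and for the genes below. No share over all probesets was computed for such counts. The marrow difference passed without marrow control 2 (-1.50, adjusted p 0.0303), with adjusted p of 0.0303 to 0.455 over the alternatives. The mean lost its call without deleted marrow array 1 (adjusted p 0.096), deleted marrow array 2 (0.103), cultured control 1 (0.0792) or cultured control 2 (0.0513).

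Fyn, a Src family kinase that T cells also use, was not lower. It read 7.92 and 7.0 in marrow controls, 7.82 and 7.60 in deleted marrow cells, 6.65 and 7.42 in cultured controls and 7.85 and 8.0 in deleted cultured cells. Deleted cells lay above their controls without overlap in culture, whereas in marrow they lay between the 2 controls. The difference was 0.25 in marrow (SE 0.34, limma adjusted p 0.836) and 0.89 in culture (SE 0.34, adjusted p 0.278), and neither passed. Without marrow control 2 the marrow difference was -0.21. Among 11 T-cell marker genes 1 rose in culture (Thy1), where 0.735% of all genes rose. In the mean of the effects 1 rose (Thy1) and 1 fell (Cd2), where 1.48% of all genes rose and 1.38% fell. Thy1 read 6.89 and 8.23 in cultured controls and 10.90 and 10.80 in deleted cultured cells, a rise of 3.29 (SE 0.39, limma adjusted p 0.0204). Cd2, which B-lineage cells also express in mice, read 9.82 and 9.25 in cultured controls and 7.32 and 5.31 in deleted cultured cells, a difference of -3.22 (SE 0.67, limma adjusted p 0.0753). The mean over the 11 genes was 5.43 and 5.63 in cultured controls and 5.91 and 5.83 in deleted cultured cells. None of the 11 lay below the dim value of 4.03 on every array. In culture Cd3e read 5.18 to 6.34, whereas Cd3d (3.87 to 4.31) and Cd3g (3.89 to 4.20) stood around the dim value. Their part in the result was not tested.

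Syk, the kinase that docks on the phosphorylated receptor chains, was lower in deleted cells. It read 9.0 and 9.74 in marrow controls, 8.88 and 8.68 in deleted marrow cells, 9.87 and 9.48 in cultured controls and 8.32 and 8.21 in deleted cultured cells. All 4 deleted arrays lay below all 4 controls, as did 3.76% of all genes, and the deleted cultured cells lay lowest. Syk fell by 1.42 in culture (SE 0.26, 2.67-fold, limma adjusted p 0.0491) and differed by -0.59 in marrow (SE 0.26, adjusted p 0.429), where its 95% interval of -1.19 to 0.01 includes 0. The mean of the 2 differences was -1.0 (SE 0.18, adjusted p 0.0354). All 17 probesets read lower in both comparisons, 17 of 17 without overlap in culture and 11 in marrow. The call in culture was narrow: it was lost without either deleted marrow array (adjusted p 0.119), cultured control 1 (0.304), cultured control 2 (0.0954), deleted culture array 1 (0.143) or 2 (0.209), and in 11 of the 19 alternatives planned, among them the replicate number as a block (0.0912). The call for the mean was lost in 8 of 18 alternatives. These were leaving out either deleted marrow array, either cultured control or either deleted culture array, the block (limma adjusted p 0.0657), and the median of the probesets.

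Bank1, a scaffold adaptor that binds Src family kinases and Plcg2, read lowest against its own controls. It read 7.55 and 7.80 in marrow controls, 3.84 and 4.60 in deleted marrow cells, 7.93 and 8.60 in cultured controls and 5.83 and 5.87 in deleted cultured cells. No deleted array overlapped a control, and the groups were 3.45 apart in marrow and 2.42 apart in culture on the log2 scale. Leaving out each array in turn gave -3.83 to -3.07 in marrow and -2.75 to -2.08 in culture. Deleted marrow array 1 lay under the dim value of 4.03 (the 25th percentile of all gene values), so the size of the marrow difference is uncertain. All 19 probesets read lower in both comparisons, 19 without overlap in marrow and 18 in culture. The probeset differences ran from -5.27 to -0.82 in marrow and from -4.14 to -1.03 in culture. They come from the arrays that the list was selected on, so they are descriptions.

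**Figure D3:**
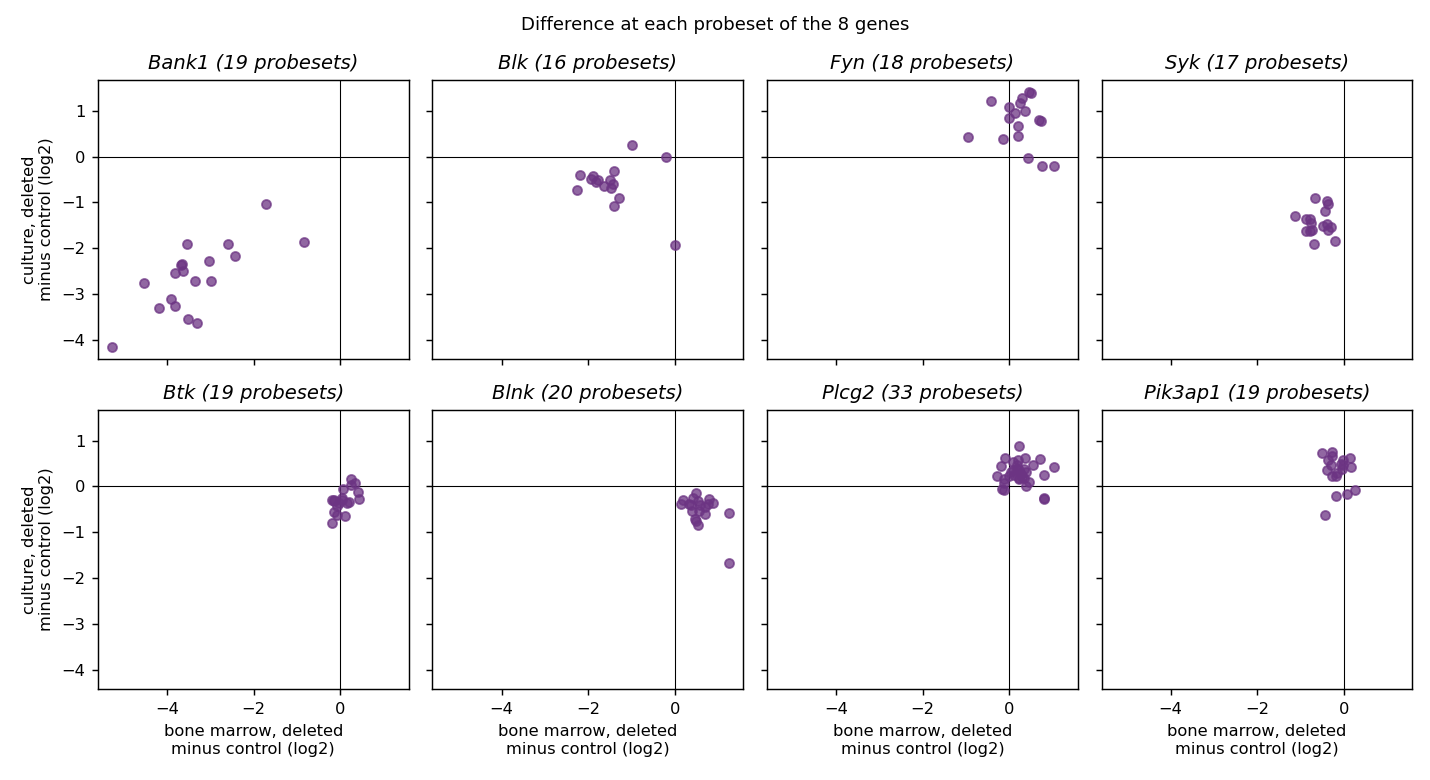
Log2 difference, deleted minus control, of every probeset of the 8 genes, marrow on the horizontal and culture on the vertical axis, with 1 point for each probeset. All 19 Bank1 and 17 Syk points lie below 0 on both axes, whereas all 20 Blnk points lie above 0 in marrow and below 0 in culture.

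Single probesets carried few calls. In limma's fit of 176903 probesets, none of the 142 probesets of the 7 genes other than Bank1 passed an adjusted p of 0.05 in marrow, in culture or in the mean of the effects. At an unadjusted p under 0.05, 20 of the 142 passed in marrow, 25 in culture and 34 in the mean. Over all probesets 7.56%, 10.2% and 11.1% did so, and the adjusted threshold was passed in the mean alone, by 0.0458% as lower and 0.0254% as higher.

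The mature B-cell markers were lower on the same arrays as Bank1, Blk and Syk. The mean over 8 mature B and plasma cell genes was 6.24 and 6.81 in marrow controls, 5.02 and 5.20 in deleted marrow cells, 6.53 and 7.06 in cultured controls and 5.65 and 5.48 in deleted cultured cells, and none of the 8 was below the dim value on every array. In the mean of the deletion effects 3 of the 8 fell (Ms4a1, Fcer2a and Cd22) and 1 rose (Xbp1). Over all genes tested 1.38% fell and 1.48% rose in the mean. Ms4a1, which encodes CD20, read 7.09 and 9.69 in marrow controls and 3.46 and 3.78 in deleted marrow cells. The deleted marrow values lay under the dim value of 4.03, so the size of this difference is uncertain. Among 8 stromal and endothelial genes tested, 3 rose in the mean (Sparc, Col1a1 and Col1a2) and none fell, and the mean over the 9 listed was 5.61 and 5.73, 5.92 and 6.11, 5.35 and 5.48, and 5.82 and 6.11 in the same order of groups. Among 5 mast cell and basophil genes tested, 1 fell in the mean (Mcpt8). In marrow 4 were lower at an unadjusted limma p under 0.05, among them Prss34 (-2.21) and Mcpt8 (-2.03), where 11.8% of all genes passed in either direction. In bulk RNA, fewer cells of a type and less RNA per cell cannot be told apart, and the part of these 3 marker lists in the result was not tested.

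Blnk, the adaptor that joins Syk to Btk and Plcg2, lay on opposite sides of its controls in the 2 settings, and neither difference passed. It read 9.01 and 9.70 in marrow controls, 9.87 and 9.89 in deleted marrow cells, 10.12 and 10.01 in cultured controls and 9.59 and 9.56 in deleted cultured cells. Deleted cells lay above their controls in marrow and below them in culture, each without overlap. Of all genes, 27.3% lay above in marrow and 21.8% below in culture without overlap. The difference was 0.53 in marrow (SE 0.22, limma adjusted p 0.402) and -0.50 in culture (SE 0.22, adjusted p 0.351). The difference between the 2 effects was -1.03 (SE 0.31, adjusted p 0.592) and did not pass. All 20 probesets stood above 0 in marrow and below 0 in culture. Marrow control 1 lay 0.69 under marrow control 2. Leaving out each array in turn, the marrow difference ran from 0.19 to 0.88 and the difference between effects from -1.37 to -0.68. The culture difference of controls ran from 0.37 to 1.06.

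Pik3ap1, an adaptor that links receptor signalling to PI3-kinase, showed the reverse order. It read 9.28 and 9.46 in marrow controls, 9.23 and 9.17 in deleted marrow cells, 8.58 and 9.02 in cultured controls and 9.15 and 9.21 in deleted cultured cells. Deleted cells lay below their controls in marrow and above them in culture without overlap. Of all genes, 17.6% lay below in marrow and 22.4% above in culture without overlap. The difference was -0.17 in marrow (SE 0.18, limma adjusted p 0.772) and 0.38 in culture (SE 0.18, adjusted p 0.383), and the difference between the effects was 0.55 (SE 0.25, adjusted p 0.666).

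Btk and Plcg2, the effector enzymes, differed little. Btk, the Tec kinase that phosphorylates Plcg2, read 8.32 and 8.51 in marrow controls, 8.35 and 8.54 in deleted marrow cells, 8.73 and 8.82 in cultured controls and 8.48 and 8.49 in deleted cultured cells. In culture the deleted arrays lay below their controls, and in marrow they overlapped. Its difference was 0.03 in marrow (95% interval -0.31 to 0.37, limma adjusted p 0.969) and -0.29 in culture (-0.63 to 0.05, adjusted p 0.417). Plcg2 read 8.22 and 8.39 in marrow controls, 8.49 and 8.39 in deleted marrow cells, 8.05 and 8.35 in cultured controls and 8.34 and 8.57 in deleted cultured cells. Its groups overlapped in both comparisons, with differences of 0.14 (-0.25 to 0.53, adjusted p 0.815) and 0.26 (-0.13 to 0.65, adjusted p 0.544), and its 33 probesets were above 0 in 25 and 29 cases.

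Whether the deletion effect differed between marrow and culture was tested as the difference of the 2 differences. By limma 0 of 16050 genes passed the adjusted threshold. At an unadjusted p under 0.05, 2 of the 7 genes other than Bank1 passed, Blk (1.08, a smaller effect in culture) and Blnk (-1.03), where 7.58% of all genes did so. The Bank1 differences in marrow and in culture were 1.04 apart. Leaving out each array in turn, the difference between the Blnk effects ran from -1.37 to -0.68.

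Culture with the Bcl2 transgene was set against marrow in the control cells. By limma none of the 8 genes passed, against 0.305% of all genes. At an unadjusted p under 0.05, 4 of the 8 passed: Blk (0.85, SE 0.23, adjusted p 0.215), Blnk (0.72, SE 0.22, adjusted p 0.251) and Btk (0.36, SE 0.15, adjusted p 0.359) higher in culture, and Pik3ap1 (-0.57, SE 0.18, adjusted p 0.258) lower, whereas 13.2% of all genes did so. Bank1 was 0.59 higher (SE 0.30, adjusted p 0.458). Without overlap 4 of the 8 were higher in culture, against 22.7% of all genes, and 1 was lower, against 19.7%, whereas Syk, Fyn and Plcg2 overlapped. The neutrophil and monocyte markers given above were lower in culture, and their part in these differences was not tested. Leaving out each array in turn, the Blnk difference ran from 0.37 to 1.06.

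Genes whose pattern over the 8 arrays lay nearest were found by the root mean square difference of log2 values, each gene centred on its own mean. For Bank1 they were Cd74 (0.44), H2-Aa (0.50) and H2-Eb1 (0.53). For Blk they were Gpr155 (0.37), Zc3h12d (0.38) and Il21r (0.39), and for Syk Ceacam1 (0.11), Arhgef18 (0.14) and Eps8 (0.16). The other members spanned too little to be matched, and the arrays share group effects, so the distances are descriptions.

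**Figure D4:**
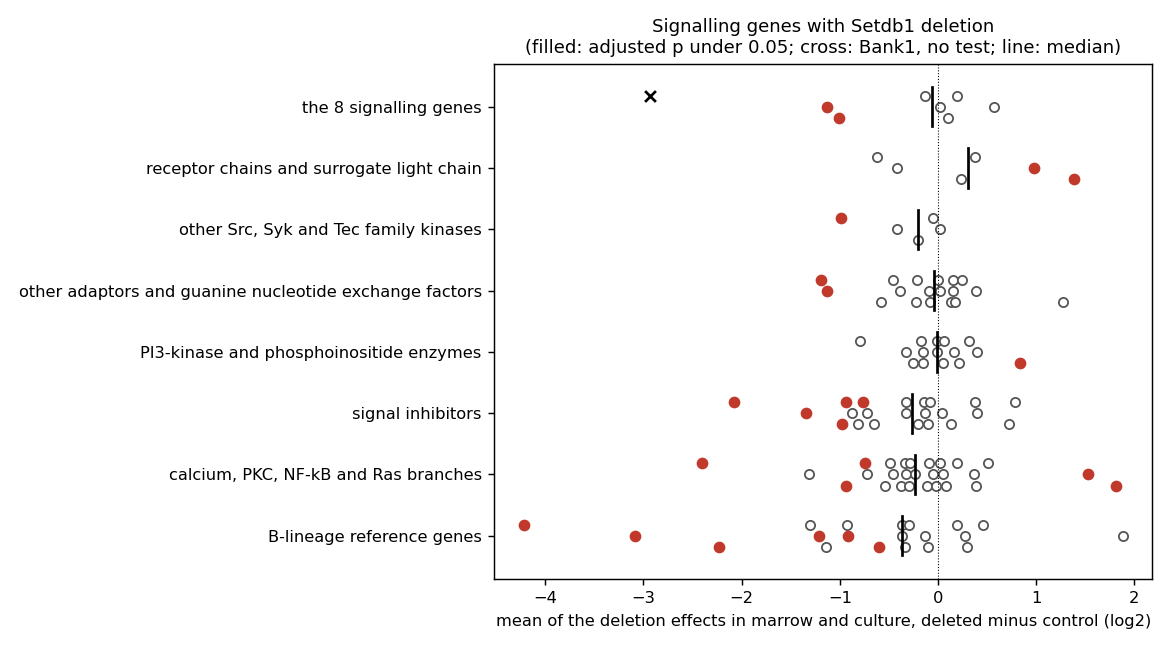
Mean of the 2 deletion effects in log2 units for the tested genes of each list, with 1 point for each gene, filled where the adjusted p is under 0.05, a cross for Bank1, which has no test, and a line at the list's median. Ms4a1 lies lowest (-4.22) and Prkcq highest (1.82) of the genes that passed.

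Of the receptor chains and surrogate light chain, 2 of 6 tested genes rose in the mean of the deletion effects, and none fell, where 1.48% of all genes rose and 1.38% fell. Vpreb2, a surrogate light chain gene, read 9.05 and 9.42 in marrow controls, 10.61 and 10.46 in deleted marrow cells, 9.37 and 9.72 in cultured controls and 11.11 and 10.90 in deleted cultured cells. It rose by 1.38 in the mean (SE 0.14, limma adjusted p 0.00587) and by 1.46 in culture (SE 0.19, adjusted p 0.024). Igll1, its partner, rose by 0.98 in the mean (SE 0.16, adjusted p 0.027). The list median was 0.31, beside 0.02 over all genes tested. Without both culture arrays numbered 2, none of the 6 passed.

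Among 5 other Src, Syk and Tec family kinases tested, 1 fell. Tec, the kinase that gives Btk's family its name, read 7.06 and 7.31 in marrow controls, 7.01 and 6.51 in deleted marrow cells, 8.56 and 8.26 in cultured controls and 6.78 and 6.95 in deleted cultured cells. It fell by 1.54 in culture (SE 0.21, limma adjusted p 0.0254) and by 0.98 in the mean (SE 0.15, adjusted p 0.0207). Of 18 other adaptors and exchange factors, 2 fell in the mean: Sh3bp2 (-1.19, SE 0.14, limma adjusted p 0.011) and Lat2 (-1.13, SE 0.18, limma adjusted p 0.0236). The list medians were -0.20 and -0.04, beside 0.02 over all genes tested. Of all genes, 1.38% fell and 1.48% rose in the mean, and 0.71% fell in culture.

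Of 15 PI3-kinase and phosphoinositide enzymes, 1 rose in the mean, where 1.48% of all genes rose. Plcg1, the relative of Plcg2 that T cells use, rose by 0.84 in the mean (SE 0.17, limma adjusted p 0.0475), a call lost without marrow control 1. Of 22 genes listed as signal inhibitors, 5 fell in the mean and none rose, with a median of -0.26. Over all genes tested 1.38% fell and the median was 0.02. Cd22, a receptor that recruits phosphatases, fell by 2.08 (SE 0.19, adjusted p 0.00545). Cd72 (-1.35), the phosphatase Ptpn6 (-0.98), Ptprc, which encodes CD45 (-0.94), and the phosphatase Ptprj (-0.76) fell as well. Ptprc and Ptprj can also activate Src family kinases, so the list's name does not describe every gene on it. In culture alone Pag1, a scaffold for Csk, rose by 1.24 (SE 0.22, adjusted p 0.0457), and 3 of the 22 fell (Cd22, Ptpn6 and Ptprc), where 0.735% of all genes rose and 0.71% fell. Without marrow control 1 the mean counts were 8 fallen and 1 risen.

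Of 27 genes of the calcium, PKC, NF-κB and Ras branches, 3 fell and 2 rose in the mean, with a median of -0.24. Of all genes, 1.38% fell and 1.48% rose in the mean, with a median of 0.02. In culture 0.71% of all genes fell and 0.735% rose. Rasgrp1, an exchange factor for Ras, fell by 2.41 (SE 0.31, limma adjusted p 0.013) and Malt1, of the NF-κB branch, fell by 0.94 (SE 0.18, adjusted p 0.0455). Prkcq, the PKC-theta gene known for T cells, rose by 1.82 in the mean (SE 0.16, adjusted p 0.00457) and by 2.64 in culture (SE 0.22, adjusted p 0.00982). Prkch rose by 1.53 (SE 0.26, adjusted p 0.0284), and Prkcb, the main PKC of B cells, fell by 1.28 in culture (SE 0.17, adjusted p 0.024). Without marrow control 1, 5 fell in the mean. Of 20 B-lineage reference genes, 6 fell in the mean and none rose, where 1.38% and 1.48% of all genes did. Among the 6 were Ms4a1 (-4.22, SE 0.51), Fcer2a (-3.09, SE 0.47), Ikzf3 (-2.24, SE 0.29) and Cd40 (-1.21, SE 0.22). Ms4a1 in deleted marrow cells (3.46 and 3.78) and Fcer2a in every deleted array (3.76 to 4.03) stood at or under the dim value of 4.03. The sizes of these differences are therefore uncertain. The lists share genes: Ms4a1 and Fcer2a were also counted among the mature B and plasma cell genes, as was Cd22 of the signal inhibitors. Without marrow control 1 the count was 9. In marrow alone no gene of these lists passed. Without both culture arrays numbered 2, an alternative added after seeing the data, none of these lists had a call in the mean except 1 fallen signal inhibitor.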

How the data were processed

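RNA of 8 samples was amplified and labelled with biotin, per the labels' protocols. The deposited values are log2 expression signals per probeset, made with RMA in Affymetrix Expression Console 1.2.0.20, per the submitters' processing notes. The genome build of the arrays is not given in the sources used here. Of 241576 probesets, 212097 name 1 gene symbol in the platform annotation, 4475 several and 25004 none. Values of probesets naming 1 gene were joined by median polish to 20416 gene values, with limma 3.58.1 in R 4.3.3. Genes above the 25th percentile (log2 4.03) on at least 2 arrays were tested, 16050 in all, and 4366 were left out as dim. limma fitted 4 group means to all 8 arrays (4 residual and 3.53 prior degrees of freedom), two-sided, with Benjamini-Hochberg adjustment at 0.05. The fit was tested on simulated data. Named genes were all members, up to 4 passing genes of each pathway list and comparison, and the 3 genes nearest in pattern to members spanning over 1.5. Outside this rule, Ptprj, Thy1, Cd3d, Cd3e, Cd3g, Xbp1, Emr1, Mpo, Mcpt8, Col1a1, Col1a2, Pax5, Ebf1 and Vpreb1 were named after their values were seen. The members and lists were chosen with earlier results of these data known. Alternatives covered probeset summary, filters, scaling, prior, replicate block, arrays in the fit and arrays left out.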

Additional observations from a re-analysis of the deposited data

Results flagged for a closer look

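The deletion effects on Blnk differed in direction between marrow and culture, with every deleted array above its controls in marrow and below them in culture: the difference between the effects was -1.03 on the log2 scale (limma adjusted p 0.592). Pik3ap1 showed the opposite order, a difference of 0.55 (limma adjusted p 0.666). Neither difference passed the test. In marrow 27.3% of all genes lay higher and 17.6% lower in deleted cells without overlap, and in culture 22.4% and 21.8%. The share that separated in opposite directions was not computed.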

How the results depend on the processing

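Only 2 arrays stand in each group, and 4 residual degrees of freedom carry every test. Genes called in marrow were 21, and 36 with the mean and 32 with the median of the probesets, 7 with the replicate block, 0 with only the arrays compared, and 0 to 570 leaving out each array. In culture 232 genes were called, and 91 with the median, 115 with the block, and 1 to 429. In the mean of the deletion effects 459 were called, and 264 with the median and 39 to 773. For the difference of effects 0 were called, and 0 to 461. For culture against marrow 49 were called, and 28 with the block, 0 with only the arrays compared, and 9 to 878. Leaving out both culture arrays numbered 2, chosen after seeing the data, gave 0, 8, 28 and 75 genes in marrow, culture, mean and culture against marrow, and 0, 0 and 1 members in the first 3. Of the 7 genes other than Bank1, 0 passed in marrow, and 1 (Blk) with the robust prior and 0 with only the arrays compared. In culture 1 passed (Syk), and 0 with the median, with only bright probesets, without the filter, after a new quantile normalisation and with the replicate block. In the mean 2 passed (Blk and Syk), and 1 (Blk) with the median and with the block. For the difference and for culture against marrow 0 of the 7 passed. These counts turned on single arrays, as given above. In fits without 1 array, the lone array left in its group is assumed to vary like the others.

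Signs turned for 8 member values. Blnk in the mean was 0.02, and -0.0050 with the median, -0.022 after a new quantile normalisation, -0.15 without marrow control 1 and -0.0087 without cultured control 2 (-0.15 to 0.19 leaving out each array). Plcg2 in culture against marrow was -0.10, and 0.045 with the median and 0.046 without cultured control 1 (-0.25 to 0.046). Btk in marrow was 0.03, and -0.018 after a new quantile normalisation, -0.069 without marrow control 1 and -0.067 without deleted marrow array 2 (-0.069 to 0.13). Without marrow control 1, Fyn (0.035, range -0.88 to 0.035) and Syk (-0.065, range -0.065 to 0.68) turned in culture against marrow. Fyn in marrow was -0.21 without marrow control 2 (-0.21 to 0.71). Without cultured control 1, Pik3ap1 in the mean was -0.0093 (-0.0093 to 0.21) and the Plcg2 difference of effects -0.029 (-0.029 to 0.27). The cause was not tested.

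The labels give groups the same replicate numbers but do not pair them. Same-numbered arrays had deviations correlated at 0.34 between the culture groups, where both arrays numbered 2 also read higher for S100a8 (11.80 and 11.92, against 5.68 and 7.83), at 0.05 between the marrow groups and at -0.18 to -0.06 between marrow and culture groups. Not every pair of groups exceeded 0.1, so the main fit has no block. The block ended the Syk calls in culture and in the mean, whereas the Blk call in the mean stayed.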
